A study of Mus musculus with 11 samples.

Results

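The genes coding for receptors of serotonin, dopamine, noradrenaline and adrenaline, histamine and acetylcholine were taken by gene symbol from RNA-seq count tables of mouse hippocampus. The symbols matched 53 genes, out of 24391 in the table of the heterozygous round and 24015 in that of the homozygous round. They comprised 14 serotonin (Htr), 5 dopamine (Drd), 9 adrenergic (Adr), 4 histamine (Hrh), 5 muscarinic (Chrm) and 16 nicotinic (Chrn) receptor genes. A gene was tested where it reached 1 CPM (CPM being its count scaled to the total of the library) in at least 1 library, which 42 of the 53 did in the heterozygous round and 43 in the homozygous round, the extra gene being Chrna6. The other 10 genes (Chrna9, Chrna10, Chrnd, Chrne, Chrng, Drd3, Drd4, Hrh4, Htr2b and Htr3b) reached it in neither round, and 3 of them (Chrnd, Chrng and Hrh4) had a count of 0 in every library.

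The mice were C57BL/6N animals from a line in which Cas9 had removed the 1b region, a conserved non-coding regulatory stretch of Scn1a, the gene of the sodium channel NaV1.1. The deletion was carried in the germline, so it was not limited to a cell type. Hippocampus was dissected at postnatal day 32 and sequenced in 2 rounds, each with its own WT mice. The heterozygous round held 3 WT mice (all male) and 4 1b+/- mice, with 1 deleted copy (3 male and 1 female), read as paired 150-base reads, and the homozygous round held 2 WT mice (both female) and 2 1b-/- mice, with 2 deleted copies (1 male and 1 female), read as single 50-base reads.

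Serotonin, dopamine, noradrenaline, histamine and acetylcholine reach the hippocampus mainly in long axons from small nuclei in the brainstem, hypothalamus and basal forebrain, so hippocampal tissue holds the receptors but few of the cell bodies that make the transmitters. Most of the receptors act through G proteins: Gs raises cyclic AMP, Gi lowers it, and Gq drives phospholipase C. The nicotinic receptors and Htr3a, the serotonin-gated channel, are ion channels that open when transmitter binds. In the forebrain, Drd1 and Drd2 are the receptors of the output neurons of the striatum, while Drd5 and Chrm1 are characteristic of hippocampal pyramidal cells.

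Libraries held 20667122 to 36145161 counts, of which the receptor genes took 0.0873 to 0.122%, so 1 CPM stood for 20.7 to 36.1 counts. Scn1a, the targeted gene, had a lower mean in 1b+/- and in 1b-/- than in WT of the same round. It measured 171, 113 and 123 CPM in the WT and 91.1, 83.3, 96.6 and 119 CPM in the 1b+/- libraries (log2 fold change -0.47 ± 0.15 SE, adjusted p = 0.303). There the groups overlapped, 1b+/- replicate 4 lying above WT replicate 2. In the homozygous round it separated the labels, with 134 and 173 CPM in WT against 26.3 and 16.7 CPM in 1b-/- (log2 fold change -2.83 ± 0.27 SE, adjusted p = 0.0211). The defining markers of hippocampus were not alike in all libraries. The 5 dentate granule cell markers summed to 113 to 178 CPM in WT and 172 to 212 CPM in 1b+/- of the heterozygous round and to 190 to 235 CPM in 1b-/-, but to 18.5 and 23.0 CPM in the 2 WT libraries of the homozygous round. The 14 striatal markers, none of them a receptor gene of the set, summed to 11250 and 4875 CPM in those 2 WT libraries, to 712 and 727 CPM in 1b-/-, to 743 to 991 CPM in WT of the heterozygous round and to 649 to 708 CPM in 1b+/-. In bulk tissue, fewer cells of a type and less RNA per cell cannot be told apart.

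Per kilobase of annotated exon, the muscarinic receptor Chrm1 was the most abundant of the receptor transcripts in WT of the heterozygous round, at 38.0 ± 4.3 RPKM (SD, n = 3), above the next gene by more than the SDs. Adra1d, a Gq-coupled adrenergic receptor, stood at 23.6 ± 2.97 RPKM, and Chrm3, also Gq-coupled, at 23.4 ± 1.41 RPKM. These 2 levels did not differ beyond their SDs. Hrh3, the Gi-coupled histamine receptor that acts as a presynaptic brake, followed at 16.1 ± 1.4 RPKM, and Chrnb2, the beta subunit shared by most high-affinity nicotinic receptors of the brain, at 13.6 ± 1.85 RPKM. The ranges of mean ± SD overlapped for Hrh3 and Chrnb2, and for Chrnb2 and Chrm4 (11.5 ± 1.2 RPKM). Within each WT library of the round, though, Hrh3 lay above Chrnb2 and Chrnb2 above Chrm4.

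**Figure D1:**
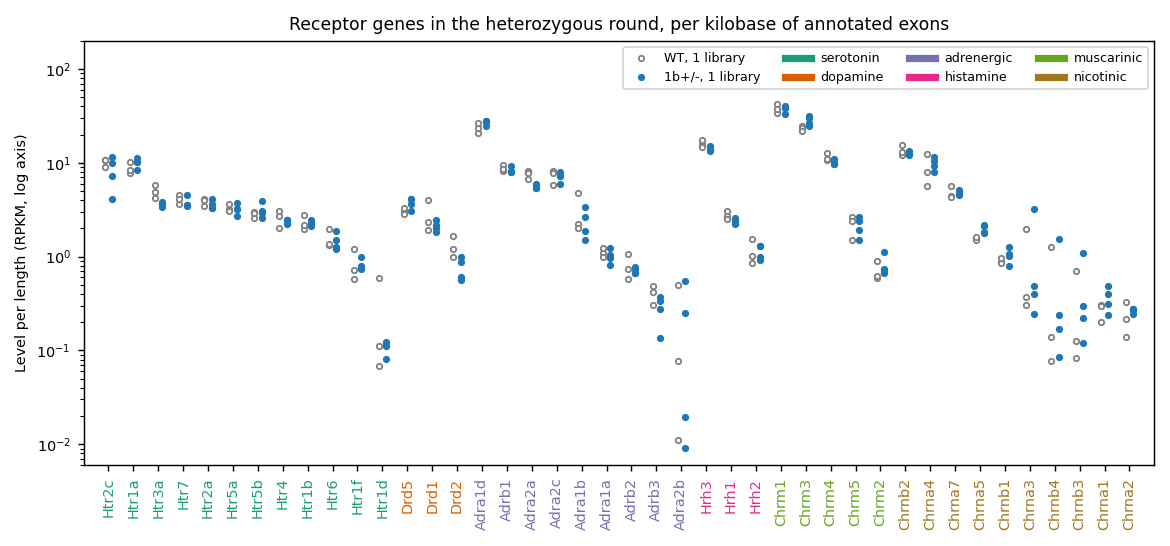
Level of each of the 42 tested receptor genes in the heterozygous round (RPKM, log axis), ordered within each transmitter by the WT mean; each point is 1 library, open for the 3 WT and filled for the 4 1b+/- mice. Chrm1 lies highest at 38.0 RPKM in WT, and Adra2b, Chrna3, Chrnb3 and Chrnb4 show the widest spread between libraries of 1 genotype.

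In WT of the heterozygous round, the serotonin receptor of highest level was Htr2c (10.2 ± 0.934 RPKM). The inhibitory autoreceptor and pyramidal cell receptor Htr1a followed (8.86 ± 1.29 RPKM). Their ranges of mean ± SD overlapped, but Htr2c lay above Htr1a within each WT library of the round. In 1b+/- replicates 1 to 4, Htr2c measured 4.1, 7.28, 9.95 and 11.5 RPKM and Htr1a 11.2, 10.3, 10.1 and 8.42 RPKM. Only in replicate 4 did Htr2c lie above Htr1a there. Htr2c was lowest in 1b+/- replicate 1, where the choroid plexus markers described below summed to 61.9 CPM. The part of these markers in the Htr2c level was not tested. Among the dopamine receptors in WT of the heterozygous round, Drd5 measured 3.08 ± 0.229 RPKM, Drd1 2.76 ± 1.09 RPKM and Drd2 1.29 ± 0.35 RPKM. Drd5 and Drd1 did not differ beyond their SDs. In the WT libraries of the homozygous round Drd5 was the lowest of the 3, with means of 46.1 ± 31.8 RPKM for Drd2, 36.5 ± 17.6 RPKM for Drd1 and 0.976 ± 0.0131 RPKM for Drd5 (SD, n = 2); Drd2 and Drd1 did not differ beyond their SDs. In the GENCODE vM1 annotation, exons of Chrm3, Chrm5, Htr1b and Drd3 were almost wholly coding (90.7% for Chrm3). If the counting used the same exons, reads from unannotated untranslated exons would not enter their counts. The gene models used for counting were not given in the sources used here, and the rounds list 24391 and 24015 genes. The lengths behind the RPKM may therefore differ from those counted.

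In 1b+/- hippocampus, none of the 42 receptor genes was called, that is, passed an adjusted p of 0.05 (quasi-likelihood test of edgeR, Benjamini-Hochberg correction across 14630 genes), as was so for 0% of all genes tested. At an unadjusted p under 0.05 there were 9 receptor genes, or 21.4%, against 11.3% of all genes tested. These were 5 lower genes (Adra2a, Htr3a, Drd2, Hrh3 and Hrh1) and 4 higher ones (Chrm3, Chrna5, Drd5 and Adra1d). Libraries of the 2 genotypes did not overlap for 4 of the 42 genes, or 9.52%, with 2 below and 2 above WT, against 10.9% of all genes tested. DESeq2 and edgeR's likelihood ratio test each called 1 receptor gene, Adra2a, and 1.68% and 1.31% of all genes.

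Adra2a, a Gi-coupled receptor that restrains noradrenaline release and also acts on target neurons, had the smallest p of the set. It measured 25.3, 31.3 and 29.4 CPM in the WT libraries and 20.3, 22.1, 22.7 and 20.5 CPM in the 1b+/- libraries. Every 1b+/- library lay below every WT library (log2 fold change -0.42 ± 0.08 SE, adjusted p = 0.0978 by edgeR's quasi-likelihood test). Without WT replicate 1 it passed the adjusted threshold, as it did with WT replicate 1 and 1b+/- replicate 4 both left out, and over all alternatives the adjusted p ran from 0.00205 to 0.776.

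The gene spans chr19:54119672-54123472 on the plus strand (mm9). Its RefSeq promoter window (GRCm38.p6; 250 bases before to 50 after the annotated start) held a TATA box, the letters TATAAA, 29 bases before the start, which 2 of the 40 receptor genes found in the promoter table and 13.6% of all 32851 promoters held on either strand. It is shown, in capitals, because Adra2a had the clearest shift in 1b+/-:
Adra2a, chr19:54045218-54045247, plus strand: tcatcctggggcTATAAAaccagtccagcg

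Htr3a, the serotonin-gated channel of certain inhibitory interneurons, measured 8.77, 10.1 and 12.03 CPM in WT and 7.60, 7.78, 7.99 and 7.04 CPM in 1b+/-. Here too the groups did not overlap (log2 fold change -0.44 ± 0.11 SE, adjusted p = 0.221 by edgeR's quasi-likelihood test), and the call was reached only when WT replicate 1 was left out (adjusted p = 0.0357). The 6 markers of MGE interneurons, the other main class of inhibitory interneurons, summed to 800.3 to 937 CPM in WT and 737 to 794 CPM in 1b+/-. Of these 6, 5 were lower in 1b+/- and 1, Pvalb, was higher (means 19.5 and 22.0 CPM). The list includes Gad1 (334.5 and 307.6 CPM) and Gad2 (222.2 and 182.7 CPM), which are not particular to MGE cells and weigh most in the sum. The 7 markers of CGE interneurons, the class that carries Htr3a, summed to 386 to 418 CPM and 385 to 411 CPM. The part of these markers in the Htr3a values was not tested. Chrm3, the Gq-coupled muscarinic receptor, lay higher in all 4 1b+/- libraries than in any WT library. Its values were 47.8, 46.2 and 42.5 CPM in WT and 61.3, 52.0, 58.3 and 48.2 CPM in 1b+/- (log2 fold change 0.27 ± 0.08 SE, adjusted p = 0.283). Chrna5, an accessory nicotinic subunit that alters the conductance and desensitization of receptors it joins, measured 4.78, 4.45 and 4.85 CPM in WT and 6.57, 6.31, 5.36 and 5.43 CPM in 1b+/-, again without overlap (log2 fold change 0.34 ± 0.11 SE, adjusted p = 0.329).

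**Figure D2:**
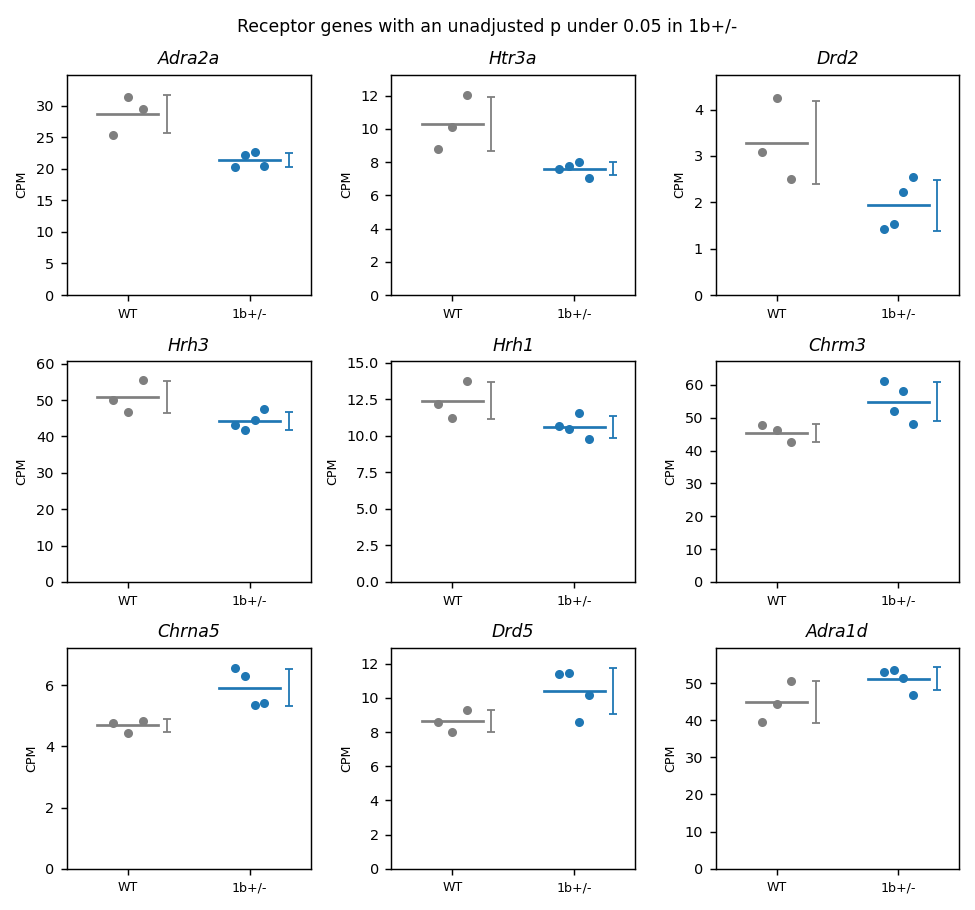
CPM of the 9 receptor genes with an unadjusted p under 0.05 in the heterozygous round; points are libraries (3 WT, 4 1b+/-), the line is the mean and the bar beside it is 1 SD. Adra2a and Htr3a lie lower and Chrm3 and Chrna5 higher in 1b+/- without overlap, while the other 5 genes overlap between genotypes.

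The dopamine receptors overlapped between genotypes in this round. Drd2 measured 3.08, 4.26 and 2.51 CPM in WT and 1.42, 1.54, 2.23 and 2.54 CPM in 1b+/- (log2 fold change -0.76 ± 0.25 SE, adjusted p = 0.321). Drd1 measured 8.31, 14.1 and 6.83 CPM in WT and 7.71, 7.19, 8.73 and 6.48 CPM in 1b+/- (log2 fold change -0.38 ± 0.22 SE, adjusted p = 0.567). Without WT replicate 2 the Drd1 value was -0.0074. That library was highest for both, and for Htr1d (1.88 CPM, against 0.354 and 0.220 CPM in the other WT libraries), and it also had the highest striatal marker sum of the round, 991 CPM. Of the 12 striatal markers tested, 11 were lower in 1b+/- and 8 had an unadjusted p under 0.05, and the marker sums did not overlap between genotypes. The part of these markers in the Drd2 and Adra2a values was not tested.

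Taken by transmitter, the differences in 1b+/- were small. Of 10 nicotinic genes tested, 9 were higher and 1 lower in 1b+/-, with a median log2 fold change of 0.23. Of 12 serotonin receptor genes, 10 were lower and 2 higher (median -0.10), and all 3 histamine receptor genes were lower (median -0.20). The median over the 42 receptor genes was -0.04, beside 0.00073 over all genes tested. Among the histamine receptors, Hrh3 measured 50.01, 46.7 and 55.4 CPM in WT and 43.2, 41.7, 44.4 and 47.6 CPM in 1b+/- (log2 fold change -0.20 ± 0.07 SE, adjusted p = 0.327).

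Part of the spread in the nicotinic genes followed 2 libraries, 1 of each genotype. Chrna3 and Chrnb4, which form the receptor typical of the medial habenula, a nucleus that borders the hippocampus, measured 6.23 and 4.46 CPM in WT replicate 1 and 9.96 and 5.40 CPM in 1b+/- replicate 4. In the other 5 libraries of the round Chrna3 ran from 0.770 to 1.53 CPM and Chrnb4 from 0.269 to 0.822 CPM. Chrnb3, a subunit found with them in the habenula, measured 3.25 and 4.98 CPM in those 2 libraries and at most 1.37 CPM in the others, and Adra2b, an adrenergic receptor enriched in thalamus, 1.98 and 2.23 CPM against at most 1.02 CPM. In the homozygous round, Adra2b reached 2.48 CPM in WT replicate 1, Chrnb3 2.29 CPM in WT replicate 2 and Chrnb4 2.76 CPM in 1b-/- replicate 2. The medial habenula markers described below summed to 47.2, 76.3 and 71.2 CPM in those libraries.

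Of the 5 medial habenula markers, which hold none of these genes, Nwd2 and Lrrc55 had the highest WT means. These were 78.2 and 16.5 CPM in the heterozygous round and 27.8 and 29.4 CPM in the homozygous round. Gpr151 and Pou4f1 stood at 2.48 and 1.44 CPM in WT of the heterozygous round, so the sum mostly follows Nwd2 and Lrrc55. In the heterozygous round the 5 markers summed to 133 and 147 CPM in WT replicate 1 and 1b+/- replicate 4 and to 77.6 to 93.8 CPM in the others. The 5 thalamic markers summed to 362 and 258 CPM there and to 61.8 to 144 CPM elsewhere. Chrna3 and Chrnb4 lie side by side with Chrna5 on chromosome 9, between 54828687 and 54896351 (mm9), yet Chrna5 was not raised in either library.

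Htr2c, a Gq-coupled serotonin receptor that is very abundant in the choroid plexus, also varied widely between libraries of the same genotype. It measured 84.6, 99.5 and 99.95 CPM in WT and 38.2, 67.9, 92.8 and 107 CPM in 1b+/- (log2 fold change -0.30 ± 0.28 SE, adjusted p = 0.722; -0.08 without 1b+/- replicate 1 and -0.51 without replicate 4), and 47.0 and 55.4 CPM in WT and 29.2 and 101 CPM in 1b-/- (log2 fold change 0.35 ± 0.55 SE, adjusted p = 0.726). It was called in 1b-/- with sex as covariate. As 1b-/- replicate 1 was the only male of that round, the covariate acts there much like leaving that library out. The lowest library of each round was thus 1b+/- replicate 1 and 1b-/- replicate 1. The 9 choroid plexus markers summed to 61.9 CPM in 1b+/- replicate 1, against 773 to 2702 CPM in the other libraries of that round, and to 63.7 and 13780 CPM in the 2 1b-/- libraries and 55.2 and 3464 CPM in the 2 WT libraries beside them.

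**Figure D3:**
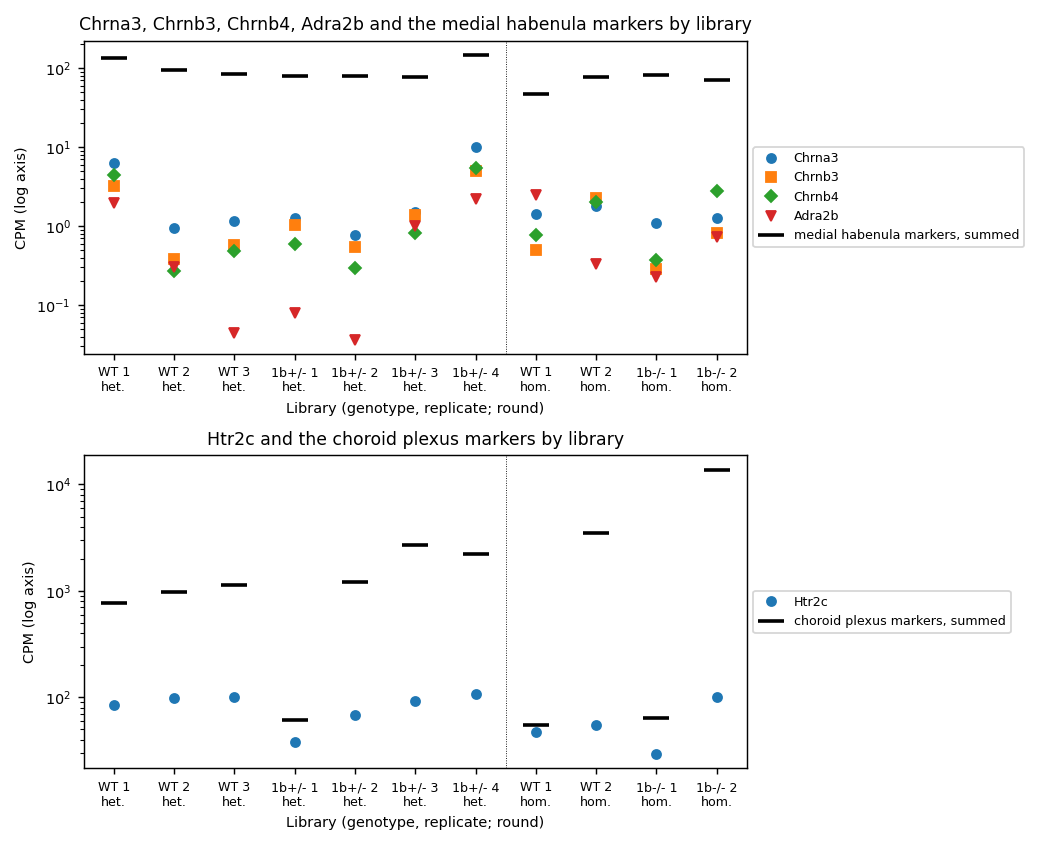
CPM (log axis) of Chrna3, Chrnb3, Chrnb4 and Adra2b with the summed medial habenula markers (top), and of Htr2c with the summed choroid plexus markers (bottom), in each of the 11 libraries. In the heterozygous round the 4 genes at the top are high in WT replicate 1 and 1b+/- replicate 4, where the habenula markers reach 133 and 147 CPM. In the homozygous round Adra2b reaches 2.48 CPM in WT replicate 1, where those markers are lowest (47.2 CPM).

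In 1b-/- hippocampus, 9 of the 43 receptor genes tested passed an adjusted p of 0.05 (edgeR's quasi-likelihood test over 14838 genes). Drd1, Drd2, Htr1d and Chrm4 were lower, which is 9.3% of the genes against 1.52% of all genes tested, and Adra1d, Htr3a, Drd5, Htr5b and Chrm1 were higher, 11.6% against 2.06%. At an unadjusted p under 0.05 there were 20 (46.5%, against 26.4% of all genes). Groups did not overlap for 30 of 43 (69.8%, against 59.7%), 15 below and 15 above WT. All these values rest on 2 mice per group. Leaving out 1 library at a time leaves a lone mouse in a group, and the number called then changed among all genes as among the receptor genes. Each of the 9 lost its call in at least 1 of these fits, but none changed direction. Their log2 fold changes ran from -4.71 to -3.69 (Drd1), -5.53 to -3.985 (Drd2), -4.98 to -3.84 (Htr1d) and -2.34 to -1.61 (Chrm4). For the higher genes they ran from 2.58 to 3.57 (Adra1d), 2.09 to 2.77 (Htr3a), 1.97 to 2.34 (Drd5), 2.52 to 3.53 (Htr5b) and 0.82 to 0.94 (Chrm1).

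Drd1, the Gs-coupled dopamine receptor of direct-pathway striatal neurons, measured 173 and 85.0 CPM in WT and 6.42 and 6.74 CPM in 1b-/- (log2 fold change -4.29 ± 0.38 SE, adjusted p = 0.0207). Drd2, the Gi-coupled dopamine receptor of the indirect pathway, measured 175 and 60.1 CPM in WT and 2.81 and 4.76 CPM in 1b-/- (log2 fold change -4.96 ± 0.63 SE, adjusted p = 0.0294). Htr1d, a Gi-coupled serotonin receptor, measured 15.3 and 6.92 CPM in WT and 0.426 and 0.533 CPM in 1b-/- (log2 fold change -4.52 ± 0.50 SE, adjusted p = 0.0251). In all 3 genes WT replicate 1 was the higher WT library by more than 2-fold.

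Chrm4, the Gi-coupled muscarinic receptor of striatal and cortical neurons, measured 109 and 65.8 CPM in WT and 24.8 and 18.2 CPM in 1b-/- (log2 fold change -2.02 ± 0.30 SE, adjusted p = 0.0367). The striatal marker sum, given above, was likewise higher in WT replicate 1 than in WT replicate 2; between the 1b-/- libraries it was higher in replicate 1, as was Chrm4, while Drd1, Drd2 and Htr1d were higher in replicate 2. All 14 striatal markers were lower in 1b-/-, 12 with an adjusted p under 0.05, with a median log2 fold change of -4.39. The 6 markers of basal forebrain cholinergic neurons summed to 116 and 51.0 CPM in WT and to 1.82 and 3.92 CPM in 1b-/-. The part of these markers in the receptor values was not tested.

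Promoter windows are shown for the 4 genes that were lower in 1b-/-. Each held the GC box, the letters GGGCGG on either strand, in a RefSeq window (GRCm38.p6; 250 bases before to 50 after an annotated start). The box was common: 24 of the 40 receptor genes in the table held it, in 28 of their 49 windows, beside 35.7% of all 32851 promoters. Capitals mark the box nearest before the start, in the reading direction of the gene; it begins 133 bases before the start in Drd1, 56 in Drd2 (there as CCGCCC, the box on the other strand), 67 in Htr1d and 88 in Chrm4:
Drd1, chr13:54054896-54054925, minus strand: gaaccctcctggGGGCGGgggcagcaatct
Drd2, chr9:49340335-49340364, plus strand: gccagggtgaccCCGCCCcctccctcctgc
Htr1d, chr4:136423445-136423474, plus strand: agcaaggggtggGGGCGGaaggggagggcc
Chrm4, chr2:91922089-91922118, plus strand: ccggccccgggcGGGCGGtgcgtccccacc

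Of the higher genes, Drd5 held the box as well, and Adra1d, Chrm1, Htr3a and Htr5b had no window in the table. The box therefore could not be compared between the lower and the higher genes. Other letters searched on both strands were the cyclic AMP response element TGACGTCA (0 receptor genes, 1.79% of all promoters), TGACG, which is contained in it (6 genes, 20.8%), and the AP-1 site TGACTCA (3 genes, 5.2%). The lower genes lie in mm9 at chr13:54146555-54151027 (Drd1), chr9:49148732-49216282 (Drd2), chr4:135979439-136000313 (Htr1d) and chr2:91762346-91769986 (Chrm4).

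Of the genes higher in 1b-/-, Adra1d, the Gq-coupled adrenergic receptor, measured 7.67 and 15.3 CPM in WT and 76.7 and 105 CPM in 1b-/- (log2 fold change 2.99 ± 0.37 SE, adjusted p = 0.0290). Htr5b, a Gi-coupled serotonin receptor, measured 1.04 and 0.515 CPM in WT and 5.73 and 6.23 CPM in 1b-/- (log2 fold change 2.94 ± 0.42 SE, adjusted p = 0.0349). Htr3a measured 1.90 and 3.04 CPM in WT and 13.4 and 12.4 CPM in 1b-/- (log2 fold change 2.39 ± 0.29 SE, adjusted p = 0.0283). The WT libraries lay far below both 1b-/- libraries in each of the 3 genes.

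Drd5, the Gs-coupled dopamine receptor of hippocampal pyramidal cells, measured 2.71 and 2.76 CPM in WT and 10.7 and 13.8 CPM in 1b-/- (log2 fold change 2.16 ± 0.23 SE, adjusted p = 0.0238). Chrm1, their main muscarinic receptor, measured 182 and 170 CPM in WT and 310 and 337 CPM in 1b-/- (log2 fold change 0.88 ± 0.13 SE, adjusted p = 0.0349). Its call was lost whichever of the 4 libraries was left out (adjusted p from 0.0504 to 0.107). Of the hippocampal cell markers, the dentate granule cell sum is given above, with 5 of 5 markers higher and 3 called, and the 4 CA1 pyramidal cell markers summed to 295 and 294 CPM in WT and to 874 and 584 CPM in 1b-/-. The 4 CA3 pyramidal cell markers overlapped, at 127 and 109.7 CPM in WT and 112 and 175 CPM in 1b-/-, with Iyd and Grik4 called higher and Coch called lower (86.1 and 6.45 CPM). The 7 markers of the interneurons that carry Htr3a (CGE interneurons) summed to 403 and 462 CPM in WT and to 706 and 698 CPM in 1b-/-. Of these 7, only Cck was called (155 and 404 CPM), while Vip and Npy had lower means in 1b-/- and Reln was at 79.2 and 79.5 CPM. The part of these markers in the receptor values was not tested.

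**Figure D4:**
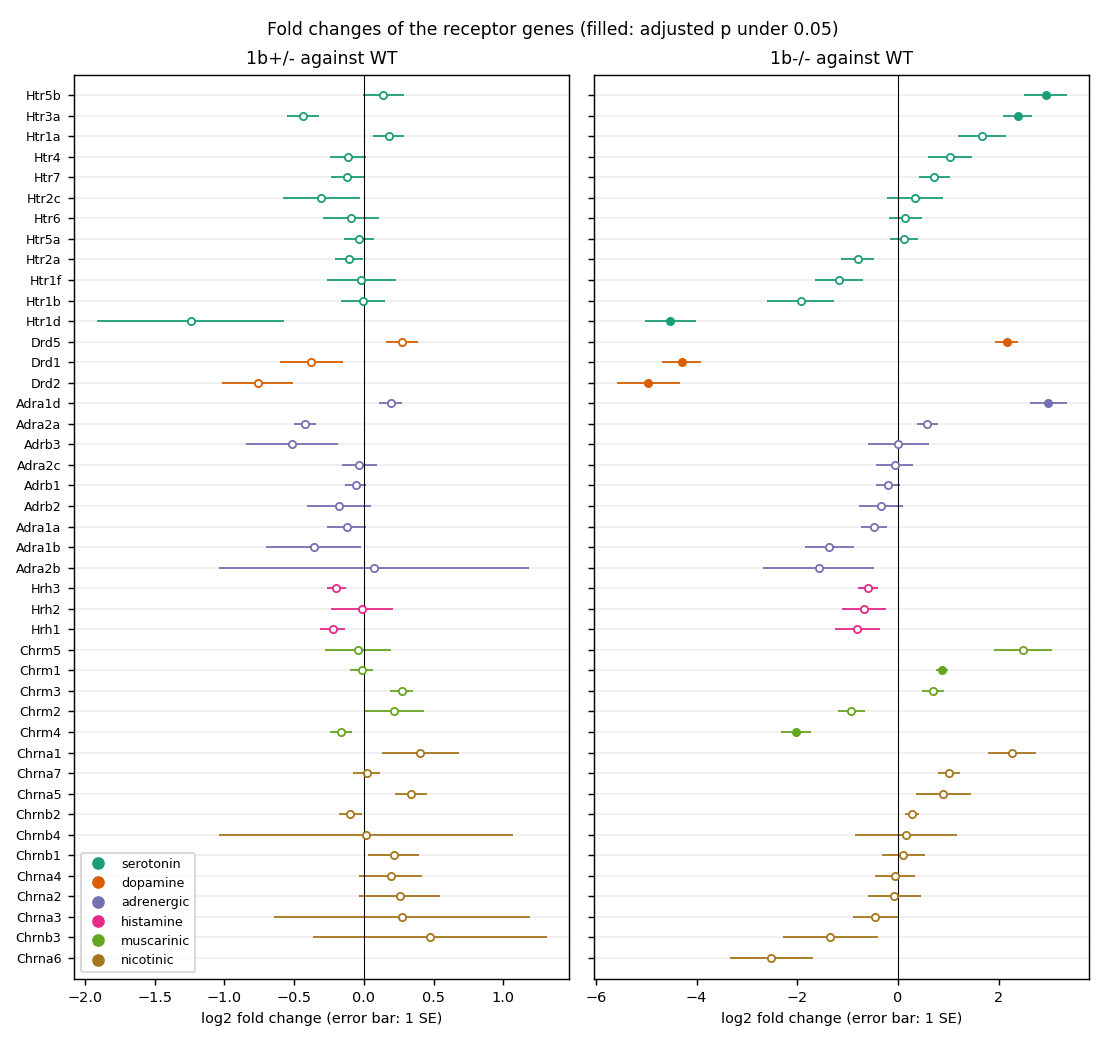
Log2 fold change with 1 SE (edgeR) of the receptor genes in 1b+/- (42 genes) and 1b-/- (43 genes) against the WT mice of the same round; colours give the transmitter, filled points have an adjusted p under 0.05, and the 2 horizontal axes differ in range. In 1b+/- no point is filled, and in 1b-/- the 9 filled points run from Drd2 at -4.96 to Adra1d at 2.99.

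A further 3 genes had an unadjusted p under 0.01 in 1b-/- without passing the adjusted threshold. Chrna7, the subunit of the fast, calcium-permeable homomeric nicotinic receptor of hippocampal neurons, measured 10.6 and 10.7 CPM in WT and 18.0 and 25.1 CPM in 1b-/- (log2 fold change 1.02 ± 0.21 SE, adjusted p = 0.0682). Chrm5 measured 0.542 and 0.281 CPM in WT and 1.82 and 2.85 CPM in 1b-/- (log2 fold change 2.49 ± 0.58 SE, adjusted p = 0.0798), and Chrna1, the alpha subunit of the muscle receptor, 0.587 and 0.421 CPM in WT and 2.67 and 2.22 CPM in 1b-/- (log2 fold change 2.27 ± 0.47 SE, adjusted p = 0.0665). In all 3 genes both 1b-/- libraries lay above both WT libraries. Of the histamine receptors, Hrh3 had the smallest p, at 147.5 and 101 CPM in WT and 84.0 and 80.01 CPM in 1b-/- (log2 fold change -0.60 ± 0.20 SE, adjusted p = 0.146).

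By transmitter, the dopamine, serotonin and muscarinic genes included calls in both directions in 1b-/-, where 1.52% of all genes tested were called lower and 2.06% higher. All 3 tested dopamine receptor genes were called, 2 lower and 1 higher. Of 12 serotonin receptor genes, 1 was called lower and 2 higher, and of 5 muscarinic genes 1 lower and 1 higher. Of 9 adrenergic genes, 1 was called higher and none lower. None of 11 nicotinic genes was called (edgeR's quasi-likelihood test, with 3 at an unadjusted p under 0.05, and by DESeq2 Chrna1 and Chrna7), and none of 3 histamine receptor genes, which were all lower (1 at an unadjusted p under 0.05, and none by DESeq2). Hrh1 was called with sex as covariate, which in this round acts much like leaving out its only male, 1b-/- replicate 1. Hrh3 was called in the fit over all 11 libraries. By coupling, 3 of 13 Gi-coupled genes were called lower and 1 higher (median log2 fold change -0.92), and 2 of 9 Gq-coupled genes were called higher and none lower (median 0.35). The median over all 43 was -0.05, beside -0.0013 over all genes tested.

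The 2 comparisons share no library, and their difference was tested in 1 fit over all 11 libraries with 4 groups. The log2 fold change in 1b-/- minus that in 1b+/- passed an adjusted p of 0.05 for 16 of 43 receptor genes (6 lower, 10 higher), or 37.2%, against 27.3% of all genes tested (48.8% against 40.1% at an unadjusted p under 0.05). The 9 genes called in 1b-/- were among them, the difference being largest for Drd2 (-4.20 ± 0.63 SE, adjusted p = 0.00145), Drd1 (-3.92 ± 0.46 SE, adjusted p = 0.000404) and Htr1d (-3.29 ± 1.01 SE, adjusted p = 0.0346). The contrast reuses the libraries of the homozygous round, so the return of these 9 genes is not independent of their calls.

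Adra2a differed in direction between the rounds. It was lower in 1b+/- (above) and measured 14.1 and 17.6 CPM in WT and 26.5 and 21.2 CPM in 1b-/- (log2 fold change 0.59 ± 0.20 SE, adjusted p = 0.151), with a difference of 1.004 ± 0.19 SE (adjusted p = 0.00368 by edgeR's quasi-likelihood test). Htr3a likewise was lower in 1b+/- and higher in 1b-/-, with a difference of 2.82 ± 0.26 SE (adjusted p = 0.000115).

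Beyond these, the difference was called for Chrna7, Chrm5 and Chrna1, and for Htr1a, Chrm2 and Htr1b. In the heterozygous round Chrna7 ran from 19.5 to 25.7 CPM in WT and 20.8 to 23.2 CPM in 1b+/-, Chrm5 from 2.62 to 4.65 CPM and 2.64 to 4.58 CPM, and Chrna1 from 0.881 to 1.34 CPM and 1.06 to 2.13 CPM, all with overlap. Htr1a measured 34.7, 37.6 and 45.7 CPM in WT and 49.7, 45.8, 44.9 and 37.4 CPM in 1b+/-, which overlapped, and 6.64 and 17.7 CPM in WT and 44.9 and 32.5 CPM in 1b-/-, which did not (difference 1.49 ± 0.42 SE, adjusted p = 0.0256). Chrm2, the Gi-coupled muscarinic autoreceptor, measured 5.38, 3.57 and 3.79 CPM in WT, 4.41, 4.51, 4.03 and 6.79 CPM in 1b+/-, 5.60 and 5.10 CPM in WT of the other round and 3.01 and 2.63 CPM in 1b-/- (difference -1.15 ± 0.35 SE, adjusted p = 0.0328). Htr1b, a terminal Gi-coupled receptor, measured 2.51, 3.53 and 2.73 CPM in WT, 3.11, 2.71, 2.90 and 2.93 CPM in 1b+/-, 12.6 and 3.88 CPM in WT of the other round and 2.90 and 1.41 CPM in 1b-/- (difference -1.93 ± 0.60 SE, adjusted p = 0.0361). The Htr1b value rested most on WT replicate 1 of the homozygous round, and the call on the difference was lost in 8 of 15 alternatives for Htr1b, 10 of 15 for Htr1d, 5 of 15 for Chrm2 and 3 of 15 for Htr1a, with sex as covariate among them for Htr1d, Chrm2 and Htr1a.

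The WT mice of the 2 rounds did not resemble each other in these genes. With all 11 libraries scaled together, mean Drd1 was 10.01 CPM in WT and 7.73 CPM in 1b+/- of the heterozygous round, 127 CPM in WT of the homozygous round and 6.43 CPM in 1b-/-. For Drd2 the same 4 means were 3.37, 1.99, 115 and 3.70 CPM, and for Adra1d 46.0, 52.6, 11.3 and 88.9 CPM. For Htr5b they were 5.62, 6.17, 0.763 and 5.85 CPM, and for Drd5 8.86, 10.7, 2.69 and 11.98 CPM.

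On the log2 scale, the 1b-/- mean was nearer to the WT mean of the heterozygous round than to that of its own round for 28 of the 43 receptor genes tested (65.1%), and for 6223 of the 14654 tested genes that both tables list (42.5%). The rounds also differ in read length and type, so round and WT group cannot be told apart in these values. Whether dissection differed for the WT mice of the homozygous round, whose striatal and dentate markers stood apart, was not given in the sources used here, and its part in the 1b-/- against WT values was not tested.

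**Figure D5:**
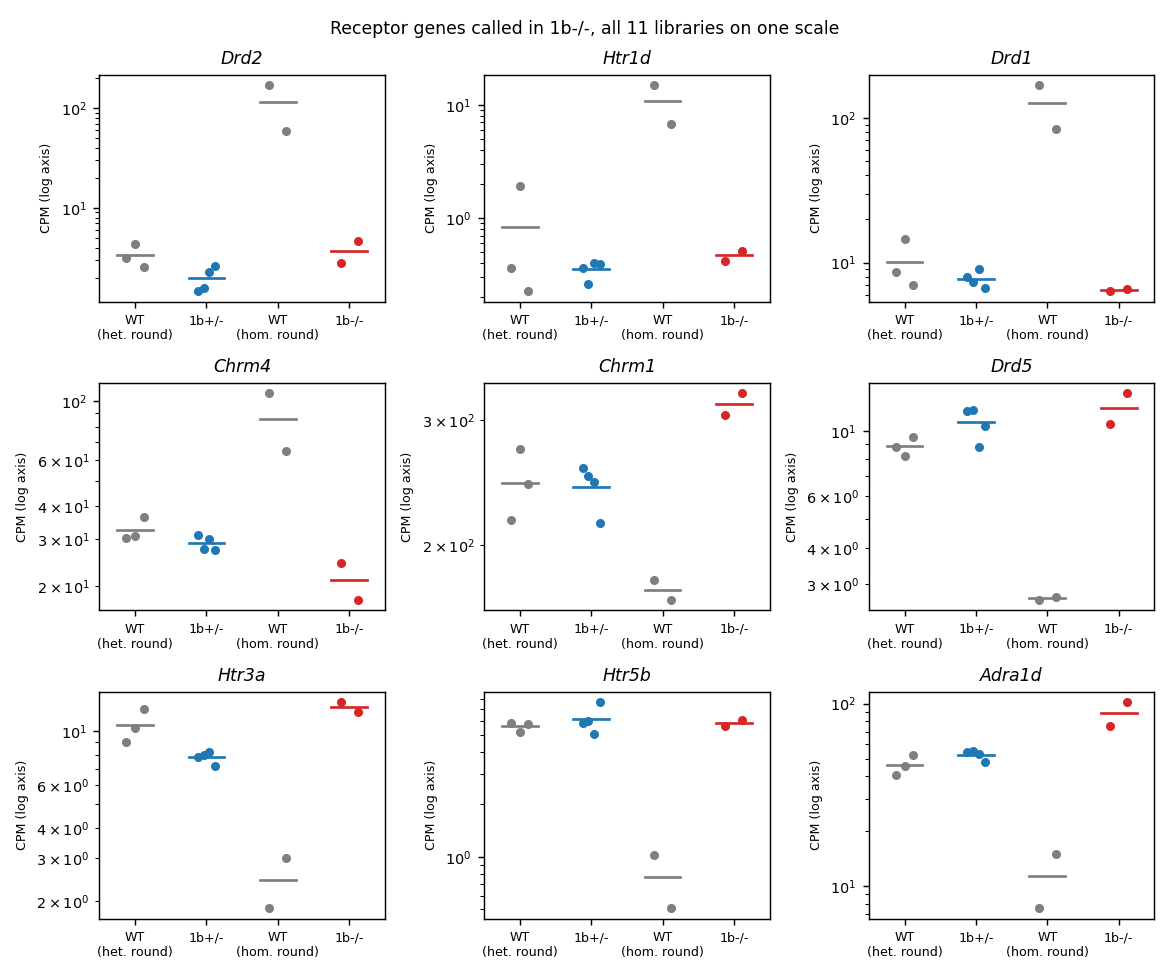
CPM (log axis) of the 9 receptor genes called in 1b-/-, in all 11 libraries scaled together; points are libraries and lines are group means. The WT libraries of the homozygous round stand apart from the other 3 groups, as for Drd1 (mean 127 CPM against 10.01, 7.73 and 6.43 CPM). The genes were chosen by a difference between those WT libraries and 1b-/-.

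Of the genes that make, carry and break down the transmitters, none of the serotonin, catecholamine or histamine lists was called in either comparison (edgeR's quasi-likelihood test, with at most 3 genes per list at an unadjusted p under 0.05). In the acetylcholine list, 6 of 7 genes were lower in 1b-/- and 3 were called: Chat, the enzyme of acetylcholine synthesis (20.6 CPM in WT, 0.152 CPM in 1b-/-, log2 fold change -7.07 ± 0.69 SE, adjusted p = 0.0216), the vesicular transporter Slc18a3 (adjusted p = 0.0320) and the choline transporter Slc5a7 (adjusted p = 0.0207). These 3 are also among the basal forebrain markers. Of all genes tested, 1.52% were called lower in 1b-/-. In 1b+/- none of the 7 was called or had an unadjusted p under 0.05.

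Of 9 tested genes for assembly and modulation of nicotinic receptors, 2 were called higher in 1b-/-, beside 2.06% of all genes tested. Ly6h, which restrains nicotinic receptor traffic to the surface, had means of 98.2 CPM in WT and 274 CPM in 1b-/- (log2 fold change 1.48 ± 0.16 SE, adjusted p = 0.0238), and Ly6e 200.1 and 348 CPM (adjusted p = 0.0472). In 1b+/-, Tmem35, a chaperone needed for Chrna7 receptors, had means of 68.5 CPM in WT and 53.8 CPM in 1b+/- (log2 fold change -0.35 ± 0.06 SE, adjusted p = 0.0777), and Lypd1, a modulator of the same family as Ly6h, 32.1 and 18.3 CPM (adjusted p = 0.115).

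Of 32 genes for effectors of the monoamine receptors, 5 were called lower in 1b-/- (Gnal, Gng7, Adcy5, Rgs4 and Rgs9) and none higher. Over all genes tested, 1.52% were called lower and 2.06% higher. Rgs9, which shortens Gi signals in striatal neurons, had means of 460.1 CPM in WT and 20.5 CPM in 1b-/- (log2 fold change -4.49 ± 0.47 SE, adjusted p = 0.0223), and Rgs4, a regulator of the same kind, 981 and 206 CPM (log2 fold change -2.25 ± 0.18 SE, adjusted p = 0.0204). Gnal, Adcy5 and Rgs9 are also on the striatal marker list. In 1b+/- none of the 32 was called and 7 had an unadjusted p under 0.05 (6 lower, 1 higher), beside 11.3% of all genes tested. The 2 of smallest p there were Rgs2, another such regulator (41.7 CPM in WT, 34.3 CPM in 1b+/-, adjusted p = 0.0881), and Adcy5, an adenylyl cyclase of the striatum (176 and 149 CPM, adjusted p = 0.273).

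Exons of 8 receptor genes (Adra1d, Chrm1, Chrm2, Chrm4, Drd5, Hrh3, Htr1b and Htr2b) overlap a gene on the other strand in the mm9 annotation. The library kit kept strand, but the strand setting of the counting was not given in the sources used here, so reads of these 8 genes could include those of the partner.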

How the data were processed

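Hippocampal RNA of 11 mice was sequenced after stranded mRNA preparation. Per the labels and the study's methods, STAR 2.7.2 and the mm9 build were used by the authors, who deposited raw counts per gene from featureCounts, 1 table per round, with no normalization. In each table, symbols of 27 genes had been turned into dates (0.300 to 0.372% of counts); none is a receptor gene. Drd1 is listed in 1 table under its older symbol.

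Genes reaching 1 CPM in at least 1 library were normalized by TMM and tested with edgeR's quasi-likelihood test (edgeR 4.0.16, limma 3.58.1, R 4.3.3), within each round, correcting p by Benjamini-Hochberg across every gene tested, and the scripts were tested on simulated data. "Called" means an adjusted p under 0.05. CPM are TMM-scaled within a round unless all 11 libraries are said to be scaled together; RPKM divide them by annotated exon bases (GENCODE vM1, mm9), and values after ± are SD or, for fold changes, SE. edgeR's common biological variation came to 9.13% (heterozygous round) and 22.9% (homozygous round). Each library is 1 mouse, with 2 to 4 per group. A p-value weighs the difference between groups against the spread between mice, which edgeR estimates partly from the other genes. Sex differed between groups and was tried as a covariate. Within a round the covariate acts much like leaving out a library. In the heterozygous round 1b+/- replicate 4 was the only female, and in the homozygous round 1b-/- replicate 1 was the only male. Other alternatives were DESeq2 1.42.0, a likelihood ratio test, other normalizations and filters, and leaving out libraries. Genes given in every library were those called in either comparison or in the difference, those with an unadjusted p under 0.01, and the gene of smallest p of each transmitter in each comparison; Chrna3, Chrnb3, Chrnb4, Adra2b and Htr2c were added after their values were seen. Of lists, the 2 genes of smallest p were named.

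Receptor genes and the 6 pathway and 17 marker lists were chosen with earlier results of these data known. The marker sums of 1b+/- did not overlap those of WT for 3 of the 17 lists (striatum, MGE interneuron and hypothalamus, all lower), nor those of 1b-/- for 10 (6 lower, 4 higher). The hypothalamus sum in 1b+/- rests mainly on Trh (means 16.3 CPM in WT and 1.18 CPM in 1b+/-), the 1 gene of its 6 that was tested there. The MGE sum includes Gad1 and Gad2, which are not particular to that class.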

Additional observations from a re-analysis of the deposited data

Results flagged for a closer look

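In the group of 4 1b+/- libraries, 4 of the 43 sets of values tested with Dixon's gap-to-range ratio had a library standing apart, where chance alone gives about 1 in 20, and in all 4 it was replicate 4, the female. Chrna3 (ratio 0.918) measured 9.96 CPM there and at most 1.53 CPM in the others, and Chrnb4 (ratio 0.896) 5.40 CPM against at most 0.822 CPM. Htr7 (ratio 0.912) measured 15.4 CPM against at most 11.98 CPM, and Htr4 (ratio 0.890) was low, at 10.4 CPM against at least 11.4 CPM. WT replicate 1, a male, measured 6.23 CPM for Chrna3, 4.46 CPM for Chrnb4, 15.2 CPM for Htr7 and 9.48 CPM for Htr4. The medial habenula markers were highest in these 2 libraries of the round, at 147 CPM in 1b+/- replicate 4 and 133 CPM in WT replicate 1. Sex and these markers cannot be told apart in 1b+/- replicate 4.

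The log2 fold change in 1b-/- minus that in 1b+/-, tested in 1 edgeR fit over 11 libraries with Benjamini-Hochberg adjustment, was called for 16 receptor genes. It was negative for Drd2 (-4.20), Drd1 (-3.92), Htr1d (-3.29), Htr1b (-1.93), Chrm4 (-1.86) and Chrm2 (-1.15). It was positive for Htr3a (2.82), Htr5b (2.79), Adra1d (2.79), Chrm5 (2.52), Drd5 (1.88), Chrna1 (1.85), Htr1a (1.49), Adra2a (1.004), Chrna7 (0.99) and Chrm1 (0.89). For Scn1a it was -2.36. Genotype dose, the round and the WT mice of each round cannot be told apart in these differences.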

How the results depend on the processing

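In 1b+/-, 0 receptor genes were called, and 1 by the likelihood ratio test and 1 by DESeq2 (Adra2a in both). Leaving out 1 library gave 0 to 2, the 2 being Adra2a and Htr3a without WT replicate 1, and leaving out WT replicate 1 and 1b+/- replicate 4 together, chosen after seeing the data, gave 2 (Adra2a and Chrm3); Scn1a was then called (log2 fold change -0.38, adjusted p = 0.0223), and its value ran from -0.59 to -0.27 with 1 library left out. In 1b-/-, the count of 9 (3.58% of all genes being called) became 14 by the likelihood ratio test (12.3% of all genes), 15 by DESeq2 (14.4%), 23 in a fit over all 11 libraries (37.1%) and 13 with sex as covariate (4.87%), each holding the same 9. With 1 library left out in 1b-/- against WT, a lone sample is assumed to vary like the others. The number called then changed among all genes as among the receptor genes. Scn1a fell short of the threshold there without WT replicate 1 (-3, adjusted p = 0.101) or WT replicate 2 (-2.64, adjusted p = 0.0601), within a range of -3.20 to -2.54. The count of 16 for the difference (27.3% of all genes) ran from 12 to 18 in fits that kept at least 2 mice per group. It was 12 without WT replicate 3 of the heterozygous round (19.2% of all genes) and 18 by the likelihood ratio test (26.9%). The cause of these shifts was not tested, beyond the smaller number of samples. Fold changes near 0 in 1b+/- changed sign: Htr1b with upper-quartile factors (0.0051), Chrm1 and Chrm5 with sex as covariate (0.035 and 0.00070), and Chrna7 without both libraries named above (-0.03). With 1 library left out they ran from -0.095 to 0.074 for Chrm1, -0.26 to 0.14 for Chrm5, -0.045 to 0.16 for Chrna7 and -0.11 to 0.16 for Htr1b, and Htr2c in 1b-/- ran from -0.81 to 0.98. No paired analysis was possible because the labels give the groups no shared replicate numbers. At 1 CPM a gene rests on 20.7 to 36.1 counts, so the 10 genes below it rest on fewer. With no filter, 50 receptor genes could be fitted in each round. Of these, 0 were called in 1b+/- (10 at an unadjusted p under 0.05) and 11 in 1b-/-, beside 0.219% and 5.42% of all genes. Chrna10 ran from 0.212 to 0.691 CPM in WT and 0.0367 to 0.174 CPM in 1b+/-, without overlap.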
